A study of Caenorhabditis elegans with 4 samples.

Results

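The regions described here are AMA-1 peaks that appear in the peak list deposited for the whole series but in neither of the 2 lists deposited for its ChIP replicates. They were chosen by overlap alone: a series-wide peak is called unmatched when it shares not even 1 bp with any peak of replicate 1 or of replicate 2. There were 3965 unmatched peaks among 15152 series-wide peaks, which is 26.2% of that list (interval 25.5 to 26.9%). The other series-wide peaks overlapped a peak in both lists (5857 peaks), in replicate 1 only (3480) or in replicate 2 only (1850). Those found in both lists are called matched peaks below and serve as the comparison.

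The study profiled the large subunit of RNA polymerase II, AMA-1, in Caenorhabditis elegans by chromatin immunoprecipitation and sequencing (ChIP-seq), with 2 ChIP libraries and 2 input DNA libraries. The ChIP libraries, replicates 1 and 2, and the input libraries all came from mixed embryos of strain N2, a wild-type genotype with both sexes present, grown under a protocol named for RNAi. All sample titles also hold RiIMB1, a term the labels leave unexplained, and whether the embryos differed from untreated ones is not known here. The antibody is described in the labels as SDQ2358, an affinity-purified rabbit polyclonal against AMA-1, while the titles carry the tag SDQ2357Q2358. Whether the replicates came from separate cultures is not stated in the labels, and in a whole-embryo extract polymerase present in few cells and low occupancy in many cells cannot be told apart. Peak positions are in WormBase WS220 coordinates, the depth behind each peak is unknown, and the deposited score has no stated unit. Scores were compared within the series-wide list only.

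RNA polymerase II transcribes the protein-coding genes. AMA-1 is its largest subunit and carries the repeated C-terminal tail that is phosphorylated as the enzyme moves from initiation to elongation. Because the enzyme travels along the whole transcribed unit, its ChIP signal spreads over gene bodies and often rises near promoters and past 3′ ends, so that closely spaced active genes can merge into a single broad domain. Many C. elegans genes lie in operons, in which a row of genes is transcribed from a shared promoter. Peak callers cut such a continuous signal into intervals, and where the cuts fall depends on the caller and its threshold. Replicate peaks had median widths of 3110 bp and 2751 bp, and series-wide peaks one of 345 bp. The part of peak calling in that difference was not tested.

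Unmatched peaks were mostly short and of low score, and the exceptions were few but large. Their median width was 227 bp (quartiles 177 and 313 bp), against 685 bp (quartiles 335 and 1515 bp) for matched peaks. Their median score was 4.39 (quartiles 3.25 and 5.86), against 9.72 (quartiles 5.5 and 18.34) for matched peaks. Peaks found in 1 replicate lay between these, with median widths of 318 bp (replicate 1 only) and 325 bp (replicate 2 only) and median scores of 5.30 and 5.50. These differences are given as a description without a test, because a wide peak has more bases that can meet another peak, and because the score may rest on the same reads as the replicate lists that chose the peaks.

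In total the unmatched peaks covered 1.15 Mb, or 9.68% of the bases of the series-wide list, against 8.14 Mb or 68.6% for matched peaks. Widths under 200 bp were found for 1484 unmatched peaks (37.4%), against 9.63% of matched peaks. The narrowest width in the list, 146 bp, occurred 122 times among unmatched and 35 times among matched peaks. At the other end, 247 unmatched peaks (6.23%) reached 500 bp and 54 (1.36%) reached 1000 bp, against 61.7% and 36.0% of matched peaks. A score of at least 20 was reached by 17 unmatched peaks (0.429%, interval 0.268 to 0.686%), against 22.7% of matched peaks. Width and score were also less tightly ordered among unmatched peaks, with a Spearman's rho of 0.40 across 3965 peaks, against 0.79 across 5857 matched peaks. Peaks are not independent replicates, and the narrower range of both measures among unmatched peaks was not adjusted for.

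The share of unmatched peaks was not highest in the very lowest scores. It was 40.3% in the lowest 10% of series-wide scores, 45.3% in the next 10%, 32.1% in the fifth and 1.19% (18 peaks) in the highest. By width it was 46.4% in the narrowest 10% and 1.52% (23 peaks) in the widest. Among the 5785 peaks that lay below the list's median in both width (345 bp) and score (5.86), 44.0% were unmatched and 18.3% were matched in both lists. These short, low peaks held 64.2% of all unmatched peaks. Among peaks narrower than the median but at or above it in score, 36.0% were unmatched, and among wider peaks of lower score 22.8% were. A low score and a short width therefore went with absence from the replicate lists, but 1061 of the 5785 short, low peaks still overlapped a peak in both lists.

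**Figure D1:**
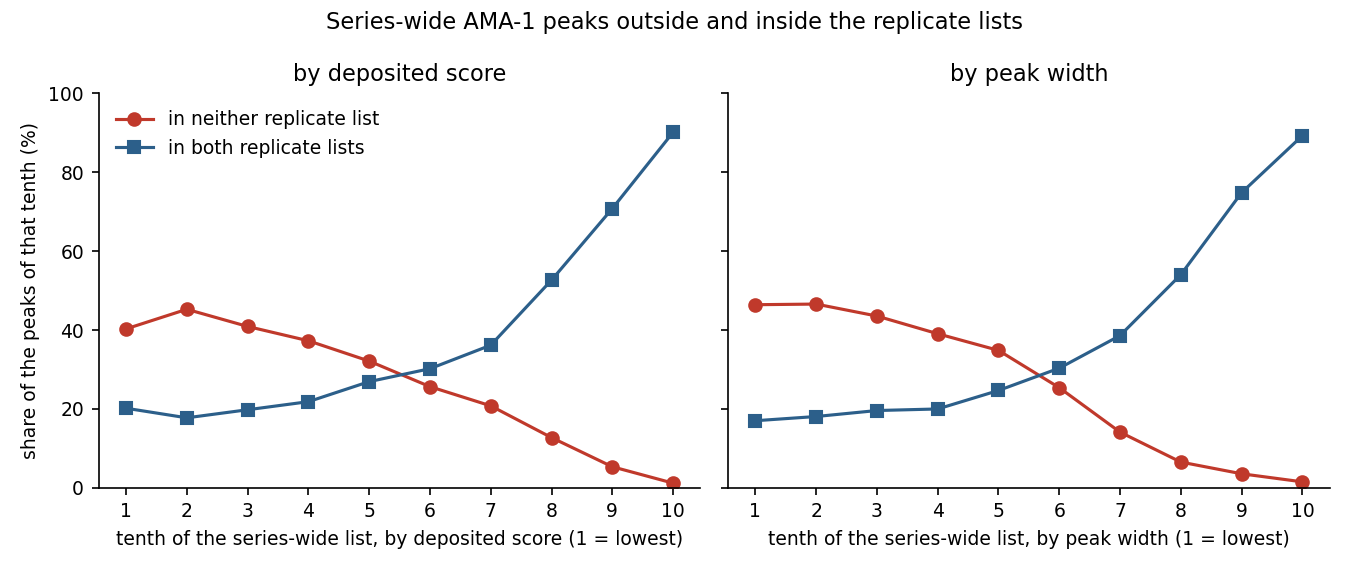
Share of series-wide AMA-1 peaks in neither replicate list (circles) and in both lists (squares), as a percentage of the peaks in each 10% of the list, ranked by score (left) and by width (right) from lowest to highest. The unmatched share runs between 45.3% and 1.19% by score and between 46.6% and 1.52% by width, and the matched share crosses above it at the sixth part of either ranking.

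Distance to the nearest replicate peak was measured from edge to edge. The median was 2659 bp (quartiles 847 and 9250 bp), and the farthest unmatched peak lay 176397 bp away. Within 1 kb of a replicate peak lay 1093 unmatched peaks (27.6%, interval 26.2 to 29.0%), a further 1409 (35.5%) lay up to 5 kb away, and 1463 (36.9%, interval 35.4 to 38.4%) lay beyond 5 kb. Beyond 10 kb there were 939 (23.7%), beyond 20 kb 484 (12.2%) and beyond 50 kb 151 (3.81%). The unmatched peaks were thus neither mainly shoulders of replicate peaks nor mainly remote from them.

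Set against the length of sequence at each distance, unmatched peaks were concentrated near replicate peaks. The replicate peaks of both lists were joined where they overlapped into 3331 domains, and the sequence outside them, 84.1 Mb, is called free. Free sequence within 1 kb of a domain made up 6.33% of it and held 205 unmatched peaks per Mb. Between 1 and 5 kb the density was 94.1 per Mb, and beyond 5 kb, where 75.9% of the free sequence lies, it was 22.9 per Mb. The density near domains was thus 8.96 times that beyond 5 kb (interval 8.28 to 9.69, counting error only). The density was highest a little away from the edge, with 189 per Mb in the first 200 bp, 229 per Mb from 200 to 500 bp and 197 per Mb from 500 bp to 1 kb. In the first band some free sequence lies in gaps narrower than a peak. From 20 to 50 kb and beyond 50 kb the density levelled at 15.1 and 16.0 per Mb.

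**Figure D2:**
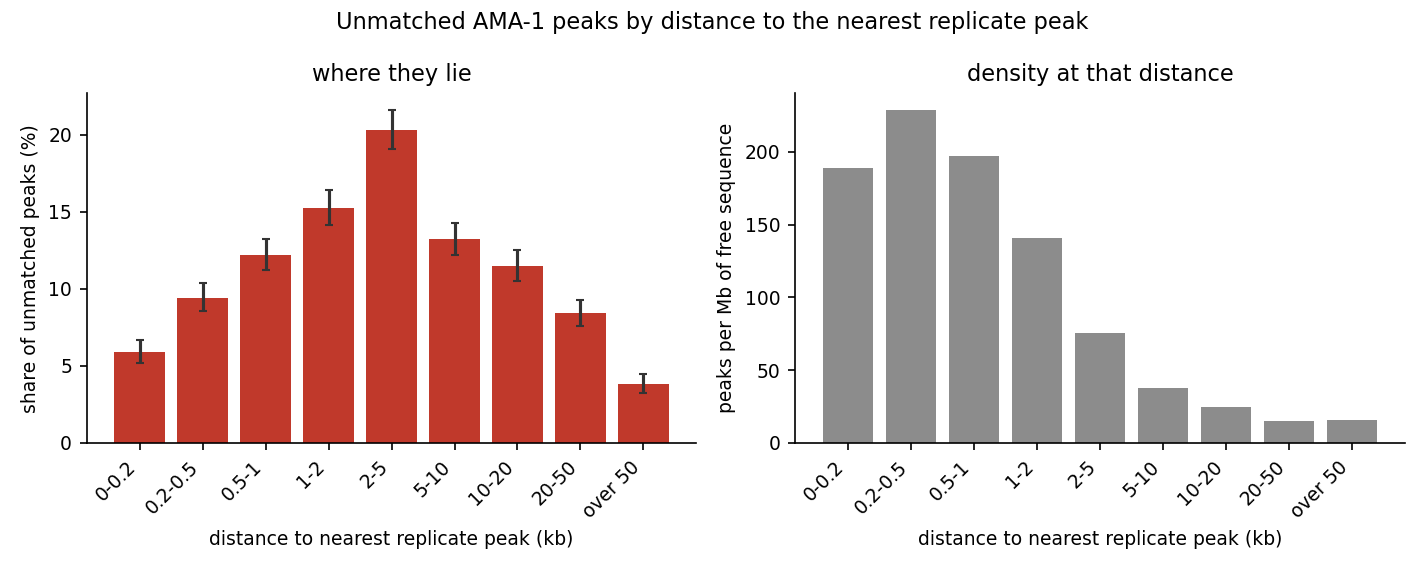
Left, share of the 3965 unmatched peaks at each distance from the nearest replicate peak (percent; bars show 95% Wilson intervals). Right, number of unmatched peaks per Mb of the free sequence at that distance. The 2 to 5 kb band holds the largest share, 20.3%, while the density is highest between 0.2 and 0.5 kb and falls to 15.1 per Mb at 20 to 50 kb.

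Width and score changed little with distance. Unmatched peaks within 1 kb of a replicate peak had a median width of 233 bp and a median score of 4.17, those from 1 to 5 kb 222 bp and 4.34, and those beyond 5 kb 229 bp and 4.48. The upper ends differed more. The widest peak within 1 kb measured 1185 bp and the highest score there was 17.22, whereas peaks of up to 7500 bp and scores of up to 42.11 occurred farther out. None of the 17 unmatched peaks with a score of at least 20 lay within 1 kb of a replicate peak, and 13 of them lay beyond 5 kb. The peak of score 35.08 among them lay only just outside, at 1009 bp. Of the 17, 12 were at least 1 kb wide. A wide peak close to a domain is likelier to overlap it and so leave the class, so these upper ends are partly set by the rule.

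Both replicate lists had unmatched peaks at their edges, replicate 1 more often. Within 1 kb of a replicate 1 peak lay 845 unmatched peaks (21.3%) and within 1 kb of a replicate 2 peak 641 (16.2%), of which 393 were that close to both. The median distance was 4158 bp to replicate 1 and 5050 bp to replicate 2. The replicate 1 list covered more sequence (13.6 Mb, against 11.9 Mb in replicate 2) in nearly the same number of peaks (2838 and 2843). The part of the difference in covered sequence in these distances was not tested. The side made little difference: of the 1093 peaks within 1 kb, 525 had their nearest domain to the left and 568 to the right in genome coordinates.

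The overlap rule leaves peaks on either side of its threshold that hardly differ. On chromosome III, the unmatched peak from 5600537 to 5600691, with a score of 4.22, began at the base after a replicate 2 peak and lay 42 bp from replicate 1. The unmatched peak on chromosome V from 2477835 to 2478039, with a score of 3.85, touched a replicate 1 peak in the same way. A peak on chromosome X from 1215732 to 1215954 missed a replicate 2 peak by 1 bp. Just inside the lists, the series-wide peaks on chromosome II from 2460423 to 2460728 and on chromosome III from 13416410 to 13416595 overlapped replicate 1 by 1 bp, with scores of 9.45 and 2.71. Within 100 bp of the threshold there were 118 unmatched peaks outside and 118 found peaks with at most that much overlap inside, so few assignments depend on it.

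Unmatched peaks did not gather at broad domains more than at narrow ones. A broad domain here spans at least 5 kb, and 1045 of the 3331 domains (31.4%) did. A broad domain was flanked, within 1 kb of its edge, by 367 unmatched peaks, which is 9.26% of all (interval 8.39 to 10.2%) and 33.6% of the 1093 near a domain. Of the broad domains 29.1% (interval 26.4 to 31.9%) had at least 1 unmatched peak within 1 kb, against 29.8% (interval 28.0 to 31.7%) of the narrower ones. By width class the share was 29.4% for domains of 10 kb or more, 28.9% from 5 to 10 kb, 29.0% from 2 to 5 kb and 30.8% under 2 kb, and the intervals of all classes overlapped. Per Mb of free sequence within 1 kb of the edge, broad domains had 206 unmatched peaks and narrower ones 220. The decline with distance was alike beside both kinds. At 1 to 2 kb the density was 132 per Mb beside broad and 145 per Mb beside narrower domains, at 2 to 5 kb it was 70.3 and 78.3 per Mb, and beyond 10 kb it was 16.6 and 20.0 per Mb.

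**Figure D3:**
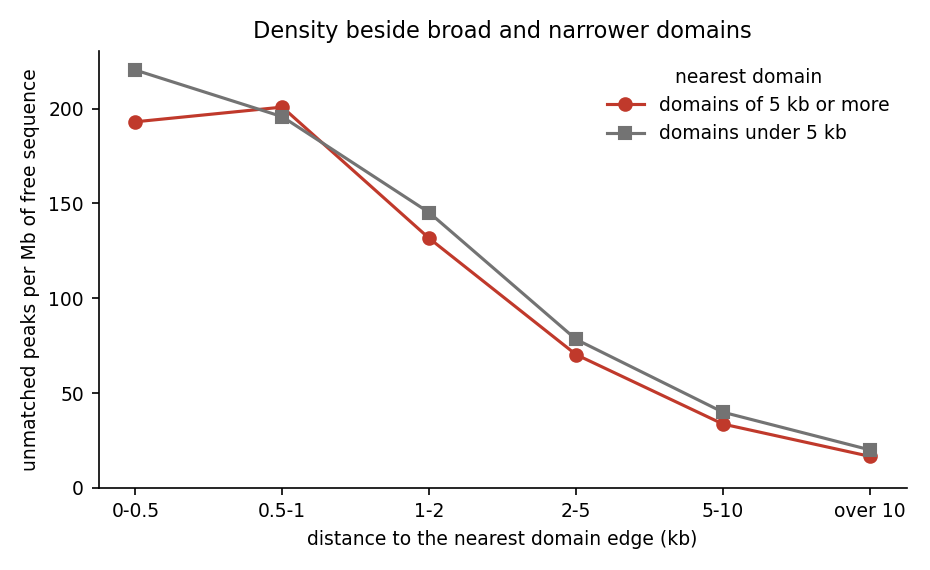
Unmatched peaks per Mb of free sequence by distance from the edge of the nearest domain, for domains of at least 5 kb (circles) and narrower domains (squares). Both lines run from about 200 per Mb near the edge (193 and 220 per Mb in the first 500 bp) to 16.6 and 20.0 per Mb beyond 10 kb.

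The make-up of the domain showed a somewhat larger spread than its width. Domains present in the replicate 1 list only had an unmatched peak within 1 kb in 34.5% of 801 cases (interval 31.2 to 37.8%), those of replicate 2 only in 27.0% of 655 (interval 23.8 to 30.6%) and those of both lists in 28.4% of 1875 (interval 26.4 to 30.5%). In domains under 2 kb the shares were 38.5% for replicate 1 only, 24.8% for replicate 2 only and 26.7% for both lists. From 2 to 5 kb they were 29.9%, 28.5% and 28.7% in the same order. From 5 to 10 kb they were 26.9% of 52, 33.3% of 42 and 28.8% of 580, so that the order of the single-list domains changed with width. No test of these differences was run, since neighbouring domains share unmatched peaks. Of the 1093 near unmatched peaks, 565 (51.7%) had a domain of both lists as the nearest, and such domains were 56.3% of all domains.

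Short gaps between domains held few unmatched peaks each but many for their length. Of 730 gaps under 1 kb, 48 (6.58%) held one, whereas 123 of 284 gaps of 1 to 2 kb (43.3%) and 227 of 395 gaps of 2 to 5 kb (57.5%) did. Per Mb of gap there were 182 unmatched peaks in gaps under 1 kb, 359 in gaps of 1 to 2 kb and 286 in gaps of 2 to 5 kb, against 47.1 over all gaps. Some gaps are too narrow to hold a peak of 146 bp, which is the narrowest in the list. In all, 144 unmatched peaks (3.63%) had a domain within 1 kb on both sides. In gaps of 100 kb or more, which make up 27.2 Mb, 141 of 178 held at least 1 unmatched peak and together they held 534, or 19.7 per Mb. The fullest gap held 24.

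Unmatched peaks were often neighbours of each other, though less densely packed than matched peaks. The nearest other series-wide peak lay a median of 777 bp away (quartiles 289 and 2145 bp), against 127 bp (quartiles 72 and 232 bp) for matched peaks. No 2 series-wide peaks lay closer than 43 bp. Another series-wide peak was found within 1 kb of 58.1% of unmatched peaks (interval 56.6 to 59.6%) and of 95.7% of matched peaks (interval 95.1 to 96.2%). Matched peaks by definition overlap replicate peaks, which often overlap several of them, so this difference is partly built into the rule. No other series-wide peak lay within 5 kb of 505 unmatched peaks (12.7%) and of 85 matched peaks (1.45%).

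The nearest series-wide neighbour of an unmatched peak was itself unmatched in 2585 cases (65.2%). It was matched in both lists in 554 (14.0%), in replicate 1 only in 507 (12.8%) and in replicate 2 only in 319 (8.05%). Unmatched peaks make up 26.2% of the whole list. The rule places them outside the replicate peaks and all others on them, so the 65.2% is partly built into it. Of the 1463 peaks more than 5 kb from any replicate peak, 83.5% had an unmatched peak as nearest neighbour and 33.1% had no series-wide peak within 5 kb at all. The first of these shares is largely set by the distance, since every other series-wide peak overlaps a replicate peak. Another unmatched peak lay within 1 kb of 45.8% of all unmatched peaks (interval 44.2 to 47.3%), of 39.5% of those within 1 kb of a replicate peak, and of 42.0% of those beyond 5 kb. Both of these lie below the share of all, so the share from 1 to 5 kb, not given here, was higher. Beside a replicate peak, part of the surrounding sequence cannot hold an unmatched peak under the rule.

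Joined across gaps of at most 1 kb with no other series-wide peak between, the 3965 unmatched peaks formed 2834 chains. Single peaks were 2151 of these and held 54.2% of the unmatched peaks. There were 472 pairs, 121 chains of 3, 48 of 4 and 42 of 5 or more, and these 42 held 315 peaks (7.94%). Matched peaks joined in the same way gave 1981 chains, of which 361 had 5 or more peaks and held 40.9% of the class. The largest chain had 20 unmatched peaks, against 22 among matched peaks.

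Peaks in long chains were on the whole larger than the other unmatched peaks. In chains of 5 or more the median width was 322 bp (95th percentile 2136 bp) and the median score 5.35, against 222 bp (95th percentile 468 bp) and 4.25 for single peaks. Chains of 2 to 4 resembled single peaks, with 224 bp and 4.18. Of the 54 unmatched peaks of at least 1 kb, 42 lay in chains of 5 or more, and 15 of these in the 3 chains with the most members. Of the 17 with a score of at least 20, 11 lay in such chains. The chains of 5 or more also held peaks as narrow as 146 bp and scores as low as 1.32.

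The chain with the highest score, which was tied for the most members, lay on chromosome III from 1068039 to 1094382. Its 20 peaks covered 22.3 kb of 26.3 kb (84.6%), with gaps of 50 to 685 bp between them. It held 7 peaks of at least 1 kb and scores from 2.8 to 42.11. Its tallest peak, from 1088442 to 1091834, was 3393 bp wide with a score of 42.11, the highest of all unmatched peaks and rank 513 in the series-wide list. Also in the chain were the peaks from 1075403 to 1077921 (score 31.05) and from 1080881 to 1084699 (score 30.91, 3819 bp wide). Neither replicate list had a peak in the 73.4 kb that surround the chain. On its left, 111 bp away, a domain of 1.63 kb was present in replicate 2 only, and on its right the next domain, present in both lists, began 46958 bp away.

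A second chain of 20 peaks ran on chromosome IV from 7132765 to 7148163 and covered 12.8 kb of 15.4 kb. Its first peak had the highest score, 18.45, and its widest measured 2352 bp. It stood apart from both lists, with domains of both replicates 47679 bp to the left and 10826 bp to the right. The third, on chromosome III from 10460082 to 10476516, held 18 peaks over 16.4 kb, with a top score of 15.05 and the highest median score of the 3, 8.82. The nearest domain lay 4195 bp to its left and was present in both lists.

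The widest unmatched peak lay on chromosome II from 6842034 to 6849533, with a width of 7500 bp and a score of 37.26. Only 71 bp separated it from another, from 6835077 to 6841962, with a width of 6886 bp and a score of 38.08. Together with 4 short peaks they formed a chain of 17.0 kb that was covered to 92.6%. Replicate 1 and replicate 2 both had a peak close to its right, 2952 bp and 2906 bp from the widest peak, and neither list reached into the chain. By score the pair ranked 589 and 604 of 15152. For this chain and the 3 before it, unmatched means that the replicate lists as used here hold no peak there. Whether those lists are complete at these places was not tested.

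**Figure D4:**
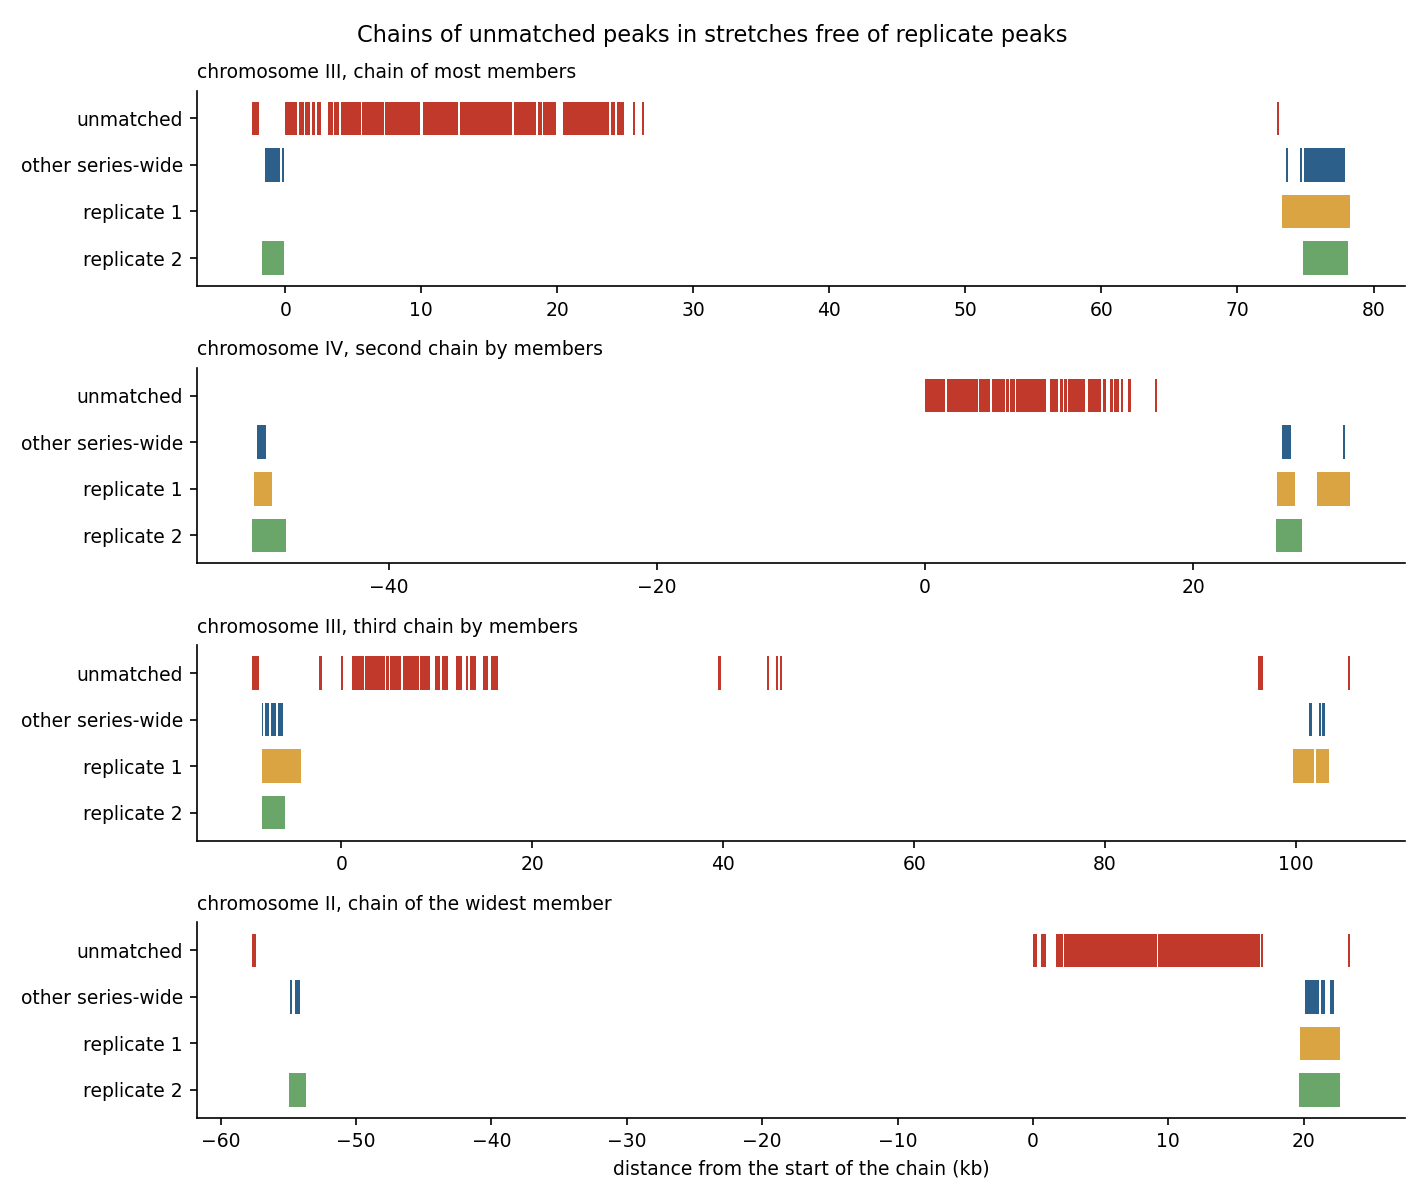
Peaks of each list in the stretches that hold the 3 chains with the most unmatched peaks and the chain of the widest unmatched peak, as distance from the start of the chain (kb), with unmatched peaks on top, the other series-wide peaks below them and then the replicate lists. Bars under 0.15 kb are drawn at that width. The replicate tracks are empty across each chain and the series-wide list holds 20, 20, 18 and 6 peaks there.

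The other unmatched peaks among the 10 of highest score were of both kinds, wide and narrow. On chromosome V, the peak from 1101607 to 1104342 had a score of 35.08 and a width of 2736 bp. It lay 1009 bp from a replicate 1 peak but 31.5 kb from replicate 2. On chromosome III the peak from 4484510 to 4489787 had a score of 34.07 and a width of 5278 bp, and opened a chain of 14. On chromosome I the unmatched peak from 9772749 to 9779683 scored 27.14 and was 6935 bp wide, 4776 bp from replicate 2 and 12.4 kb from replicate 1. The fifth widest unmatched peak lay on chromosome IV from 14210781 to 14215461, with a width of 4681 bp and a score of 14.59.

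High scores also occurred at short, solitary intervals. On chromosome III the peak from 10624528 to 10624832 had a score of 33.72 at a width of 305 bp. It lay 17.9 kb from replicate 1 and 20.7 kb from replicate 2, and the next unmatched peak was 27559 bp away. On chromosome I the peak from 11579495 to 11579844, 350 bp wide, had a score of 27.62 and lay 21.8 kb from the nearest replicate peak. In all, 5 of the 17 unmatched peaks with a score of at least 20 were under 1 kb wide, and their widths ran from 193 to 350 bp. The other 3, which were singled out after their values were seen, lay on chromosome II from 11988835 to 11989162 (score 21.17) and on chromosome V from 8489241 to 8489512 (score 21.91) and from 19869489 to 19869681 (score 22.33). The highest scores on the remaining chromosomes were 19.78 on IV, for the peak from 2213404 to 2213968, and 19.02 on X, for the peak from 7830 to 8137 near the left end.

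The most remote unmatched peaks lay on V and X. On chromosome V the peak from 15770899 to 15771240 (score 6.21) lay 176 kb from replicate 1 and 179 kb from replicate 2, and no other unmatched peak occurred within 102582 bp of it. In the same gap of 428 kb between domains, the peak from 15873823 to 15874133 had a score of 11.97. The peak on V from 3217038 to 3217189, 152 bp wide with a score of 5.86, lay 150 kb from the nearest replicate peak. A pair on X, from 11800271 to 11800496 and from 11801550 to 11801725, lay 149 kb and 148 kb from replicate 1, with scores of 3.25 and 5.51. Such peaks were scarce, with 151 beyond 50 kb in all, but their median score of 4.7 was no lower than that of the rest.

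Unmatched peaks followed the matched peaks across chromosomes. In C. elegans, operons and broadly expressed genes are frequent on the autosomes, chromosome X is poor in genes expressed in the germline, and in XX animals a dosage compensation complex lowers transcription from both X chromosomes. Chromosome I held 55.4 unmatched peaks per Mb, III 54.1, IV 46.1, II 41.4, V 26.1 and X 22.8. Matched peaks had 85.2 per Mb on I, 85.0 on III, 59.0 on IV, 64.1 on II, 39.8 on V and 31.8 on X. The order of the chromosomes was the same in both classes except that II and IV changed places. The pooled density of X was 0.528 of that of the autosomes for unmatched peaks (interval 0.476 to 0.585) and 0.495 for matched peaks. Per Mb of free sequence, which is more plentiful on X, the ratio for unmatched peaks was 0.481. Gene density was not taken into account.

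As a share of each chromosome's series-wide peaks, the unmatched class made up 29.5% on IV (interval 27.8 to 31.3%), 26.7% on X, 25.8% on I, 25.5% on III, 25.02% on II and 24.4% on V (interval 22.7 to 26.3%). Median widths (222 to 234 bp) and median scores (4.18 to 4.48) hardly differed between chromosomes. Distances did. The median distance to a replicate peak was 4858 bp on X and between 2128 bp (I) and 2958 bp (IV) on the autosomes, and 49.3% of unmatched peaks on X lay beyond 5 kb, against 35.5% on the autosomes. Free sequence makes up 90.6% of X and 82.6% of the autosomes. The density within 1 kb of a domain exceeded that beyond 5 kb on 6 of 6 chromosomes, from 6.18 times on III to 12.8 times on V.

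Of the 54 unmatched peaks of at least 1 kb, 19 lay on chromosome III, 9 on I, 9 on IV, 7 on II, 6 on V and 4 on X. On III they were 2.55% of its unmatched peaks, and between 0.990% (X) and 1.12% (IV) elsewhere. The first and the third of the chains described above lie on III, as does the chain of 14. They held 7, 4 and 5 of the 19 peaks, so the share on III rests mostly on these chains.

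Unmatched peaks were denser in the outer parts of the chromosomes than in the middle. Each chromosome was cut into 3 parts of equal length, which do not follow the genetically defined arms, and the 2 end parts were pooled. The outer parts held 44.6 unmatched peaks per Mb and the middle 29.6, a ratio of 1.50 (interval 1.40 to 1.62), against 1.35 for matched peaks. The ratio was above 1 on 6 of 6 chromosomes. It was 1.83 on III, 1.72 on X, 1.56 on I, 1.47 on IV, 1.42 on II and 1.13 on V for unmatched peaks. For matched peaks it was 1.17 on III, 1.38 on X, 1.46 on I, 1.52 on IV, 1.27 on II and 1.38 on V. Chains weigh on single chromosomes. When each chain was counted once, a comparison added after the chains had been seen, the ratio was 1.51 on III and 1.83 on IV, and 1.51 over all chromosomes. The ratios of matched peaks given above are per peak, so they cannot be set against these.

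**Figure D5:**
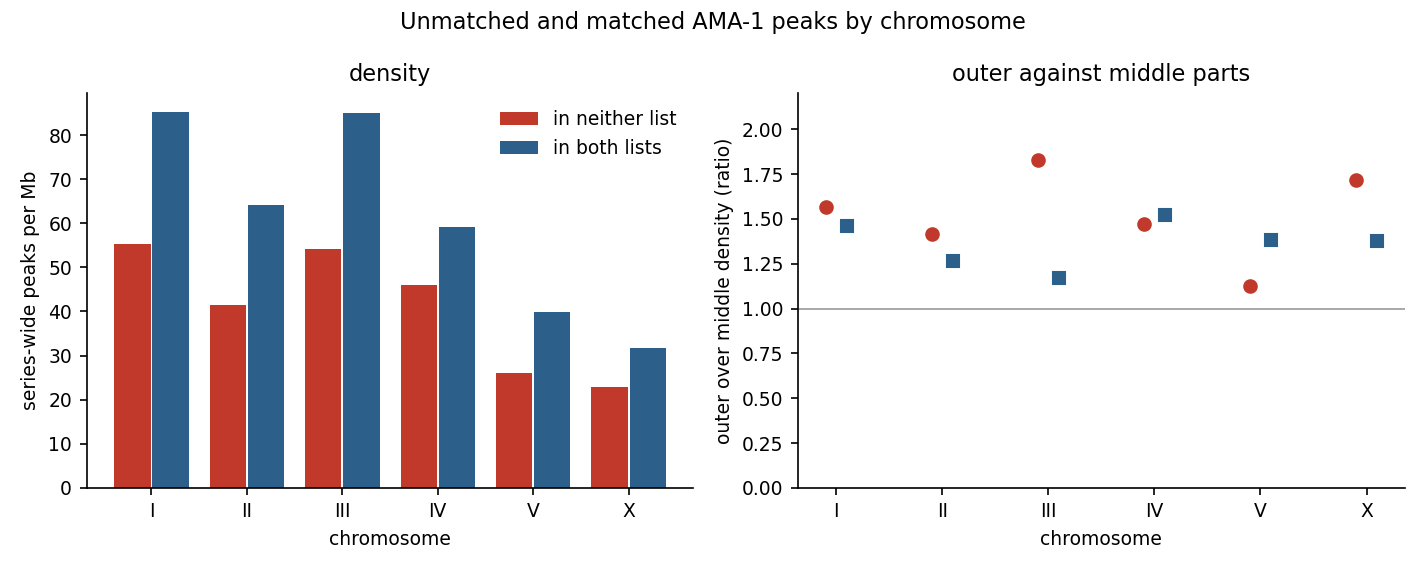
Left, series-wide peaks per Mb on each chromosome, in neither replicate list and in both lists. Right, ratio of the density in the outer parts of each chromosome to that in the middle part for unmatched (circles) and matched (squares) peaks, with a line at equal density. Unmatched peaks run from 55.4 per Mb on I to 22.8 on X, and their ratio is above 1 on each chromosome, furthest from that of matched peaks on III (1.83 and 1.17).

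At a scale of 1 Mb, unmatched peaks again tracked matched peaks, with exceptions. Over 97 complete bins the median was 35 unmatched peaks per bin (range 9 to 101), and counts of both classes had a Spearman's rho of 0.73 across bins, which share the same libraries and lists. The highest count, 101 unmatched peaks, was found on IV from 1 to 2 Mb, and neighbouring bins on III, from 1 to 2 Mb and from 2 to 3 Mb, held 90 and 91. The lowest counts were 9 on X from 11 to 12 Mb, 10 on X from 6 to 7 Mb and 11 on V from 3 to 4 Mb. The unmatched share of a bin's series-wide peaks had a median of 24.7%. It was highest from 3 to 4 Mb on X, where 36 of 55 series-wide peaks (65.5%) were unmatched and 5 were matched in both lists. A chain of 9 unmatched peaks on X from 3458889 to 3465179 lies in that bin. The lowest share was 11.8% (14 of 119 peaks), from 16 to 17 Mb on V.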

How the data were processed

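ChIP DNA of 2 AMA-1 libraries and 2 inputs was measured, and 3 deposited peak lists in WormBase WS220 coordinates were used, per the file headers. BWA and the ce10 assembly are named in the submitters' processing notes. Per the file headers and source columns, the replicate lists come from MACS (no version) and the series-wide list from MACS version 2. Calling settings, use of the inputs and pooling were not given in the sources used here. The score the authors deposited for each peak has no stated unit. Its lowest value was 50.07 in both replicate lists and 1.3 in the series-wide list. Start and end, counted from 1, were used as deposited. Read counts were not used, so depth is unknown.

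Overlap meant at least 1 bp, and distance the bases between edges. Domains were replicate peaks joined where they overlapped. A chromosome's length was taken as the highest peak end over the 3 lists. Intervals of shares are 95% Wilson intervals. They and the intervals of ratios allow for counting error alone and ignore the dependence of neighbouring peaks. No significance test was run, because overlap with the same lists chose the peaks. Functions were tested on simulated lists. The rule named the 10 unmatched peaks of highest score, the 5 widest, the 5 farthest, the 3 chains of most members, the best on each chromosome and those at the threshold. The peaks, lists and thresholds were chosen with earlier results of these data known. No annotation or sequence in WS220 coordinates was used here. Python 3.11.15, numpy 2.4.6, pandas 2.3.3, scipy 1.17.1 and matplotlib 3.10.9 were used.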

Additional observations from a re-analysis of the deposited data

How the results depend on the processing

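Each of the 10 summary values was recomputed under at least 5 alternatives. Of 64 recomputed values 19 stayed within the interval of the reported one, and no ratio crossed 1. Requiring overlap of 50% of the shorter peak gave 27.1% unmatched, 30.0% of them within 1 kb of a replicate peak. Peaks with a smaller overlap count there as within 1 kb. They were left out of the near-to-far density ratio, so its value under that rule, 8.96, was unchanged by construction. That value is among the 19. Using the better-scoring 50% of the series-wide list gave 13.5% unmatched, with 24.9% within 1 kb and 42.1% beyond 5 kb. Dropping the lower scores raises the median score and removes possible neighbours by construction. The near-to-far density ratio was then 7.10, the median width 300 bp and the median score 7.21, and 22.1% had an unmatched neighbour within 1 kb. Using the better-scoring 50% of each replicate list gave 50.4% unmatched, 12.4% within 1 kb, 60.4% beyond 5 kb, 7.22% beside a broad domain, a density ratio of 4.96, a median width of 269 bp, a median score of 4.81 and 68.2% with such a neighbour; fewer replicate peaks leave more peaks unmatched by construction.

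A single replicate list was also used, and values are given without replicate 2 and then without replicate 1. The unmatched share was 38.4 and 49.1%, the share within 1 kb 22.4 and 22.5%, beyond 5 kb 47.5 and 42.9% and beside a broad domain 6.83 and 7.15%. In the same order, the density ratio was 7.25 and 7.80, the median width 248 and 257 bp and the median score 4.55 and 4.78. The share with an unmatched neighbour was 57.6 and 66.2%, the ratio of X to autosomes 0.536 and 0.524 and the outer-to-middle ratio 1.34 and 1.50. Other distances move shares by construction. Within 500 bp or 2 kb of a replicate peak lay 15.3% or 42.8%, and beyond 2 kb or 10 kb lay 57.2% or 23.7%. The share beside a broad domain was 14.3% for domains of 3 kb, 3.33% for 10 kb, 4.69% within 500 bp and 14.9% within 2 kb. An unmatched neighbour lay within 500 bp of 32.0% and within 2 kb of 56.5%. With each chain counted once, an alternative added after the data were seen, the near-to-far ratio was 10.8. No paired analysis was possible because no value comes from a test between groups and the inputs have no peak list here. A peak missing from a replicate list was not shown to be absent there.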
